A study of Homo sapiens with 12 samples.

Results

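The genes described here encode the subunits of the human 26S proteasome, its activators and inhibitor, and the factors that assemble it. They were chosen by symbol from the authors' expression table, as every gene named PSMA to PSMG followed by a number, together with ADRM1, POMP and ECPAS. This gave 49 genes of 19460 in the table, and all 49 passed the filter on low values (a mean of at least 0.5 FPKM over the 6 libraries). The rule itself used no measured value, though it was chosen with earlier results of these data known. The genes fell into 7 alpha and 7 beta subunits of the constitutive core, 3 immunoproteasome subunits, 10 base and 8 lid subunits of the regulatory particle, 5 activators or inhibitors, 8 assembly factors and the adaptor ECPAS.

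The cells were T-47D, an established luminal epithelial breast cancer line that expresses the oestrogen receptor, given as wild type (WT) in the labels of the RNA libraries. They received 1 µM palbociclib, which inhibits the cyclin D kinases CDK4 and CDK6, or DMSO, its solvent, for 24 h. Poly(A) RNA was sequenced, and accessible chromatin was read by ATAC-seq, in which the transposase Tn5 cuts open DNA. Each assay had 3 biological replicates per treatment. In the RNA assay, culture in DMEM with fetal bovine serum was shared by both groups, and no other agent or allele is named in the labels. Both ATAC groups grew in DMEM with serum, penicillin and streptomycin, and the ATAC controls had 0.1% DMSO. All libraries come from 1 cell line, so they hold no variation between donors or lines.

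The proteasome degrades proteins that carry ubiquitin chains. Its core particle is a barrel of stacked alpha and beta rings, with the proteolytic sites on PSMB5, PSMB6 and PSMB7 inside and a gate formed by the alpha ring. The regulatory particle docks on the gate: its base holds a ring of AAA ATPases that unfold the substrate, and its lid removes the ubiquitin chain. Dedicated chaperones put the rings together and leave, or are degraded, once assembly is complete. When proteasome activity is limiting, the transcription factor NRF1 (gene NFE2L1), paired with a small MAF protein, is known to raise the transcription of proteasome genes through antioxidant response elements near their starts. In breast cancer cells, as in other dividing cells, the proteasome turns over cyclins, CDK inhibitors and the oestrogen receptor.

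The members that fell most in the comparison below were PSMC3, PSMG1, PSMG2, PSMG3 and ADRM1, and the bases upstream of 4 of them are printed here because the element named above was searched for in them. No start of PSMG3 was in the sequence table. Each sequence ends at the base before the 5′ end of the gene in RefSeq on GRCh38.p14 and reads 5′ to 3′ on the strand of the gene, over 187 bases for PSMG1 and 250 for the others. Capitals mark matches to the core of the antioxidant response element, TGACNNNGC, on either strand. The sequences lie at chr11:47426440-47426689 (minus strand) for PSMC3, chr21:39183515-39183701 (minus strand) for PSMG1, chr18:12658488-12658737 (plus strand) for PSMG2 and chr20:62302646-62302895 (plus strand) for ADRM1.
PSMC3: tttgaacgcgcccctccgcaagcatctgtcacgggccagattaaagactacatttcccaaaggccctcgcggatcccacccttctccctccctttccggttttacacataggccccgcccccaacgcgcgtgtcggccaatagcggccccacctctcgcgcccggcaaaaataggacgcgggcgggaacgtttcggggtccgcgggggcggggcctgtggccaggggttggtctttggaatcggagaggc
PSMG1: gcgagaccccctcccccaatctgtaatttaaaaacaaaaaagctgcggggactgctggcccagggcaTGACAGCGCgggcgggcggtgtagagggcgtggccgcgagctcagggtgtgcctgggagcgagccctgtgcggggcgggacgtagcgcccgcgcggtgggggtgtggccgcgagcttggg
PSMG2: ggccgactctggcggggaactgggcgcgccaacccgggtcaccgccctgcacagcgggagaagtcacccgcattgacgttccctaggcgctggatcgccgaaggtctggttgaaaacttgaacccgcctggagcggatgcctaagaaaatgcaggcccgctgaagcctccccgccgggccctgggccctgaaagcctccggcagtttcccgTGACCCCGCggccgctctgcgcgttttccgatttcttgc
ADRM1: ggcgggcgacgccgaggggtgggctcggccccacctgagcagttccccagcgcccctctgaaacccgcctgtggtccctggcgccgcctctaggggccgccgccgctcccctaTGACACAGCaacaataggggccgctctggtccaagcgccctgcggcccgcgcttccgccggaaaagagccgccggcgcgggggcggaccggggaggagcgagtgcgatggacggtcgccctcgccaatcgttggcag
The match began 120 bases before the gene in PSMG1, 39 bases before it in PSMG2 and 137 bases before it in ADRM1. The 250 bases before PSMC3 held none, which says only that these letters are not in this window.

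Across the 250 bases before each RefSeq start, the antioxidant core was found at 15 of 54 starts of members (27.8%), against 10.9% of 35116 starts of all genes. It occurred in 14 of the 43 members with a start: ADRM1, PSMA4, PSMB3, PSMB9, PSMC5, PSMD3, PSMD5, PSMD9, PSMD12, PSME1, PSME2, PSME4, PSMG1 and PSMG2. Of the 22 members with a start whose RNA was called lower below, 9 held it, and of the other 21 members 5 did. The ETS core CCGGAAG was found at 20.4% of member starts and 8.52% of all starts, and the CCAAT box at 37.0% and 32.0%. The E2F letters TTTGGCGC were at 1 of 54 member starts (1.85%) and 0.55% of all starts, and TTTCCCGC at 2 of 54 (3.70%) and 1.39%. The CHR letters TTTGAA, known from genes of the late cell cycle, were at 11.1% of member starts and 13.3% of all starts. Every motif was searched on both strands, matches of different motifs were allowed to overlap, and starts of 1 gene can share bases. A match is a description of letters, and binding of a factor was not measured.

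The libraries within a treatment had a Pearson r of at least 0.995 across genes on the log2 scale, and libraries of different treatments at most 0.971. The E2F targets CCNE2, MKI67, E2F1 and RRM2 were lower and CCND1 was higher after palbociclib, and all 5 passed the test. Of 9 luminal epithelial markers, all were present and 8 were higher after palbociclib, and the part of this in the results was not tested. Among 8 markers of other cells, PTPRC, PECAM1, KRT5 and KRT14 were not in the table analysed, CD68 and COL1A2 stayed under 0.5 FPKM, and VIM lay between 1.17 and 2.18 FPKM. COL1A1 lay between 23.1 and 26.0 FPKM in all 6 libraries, and its part in the results was not tested. ATAC libraries held 12830062 to 18250496 counts in 38121 peaks, and RNA depth per library is not given by FPKM values.

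After palbociclib, the RNA of 25 of the 49 proteasome genes was lower and that of 3 was higher, while 21 did not pass the test. The largest falls were in the base ATPase PSMC3 (to 60.0% of the DMSO mean) and in the core chaperones PSMG1 (62.7%), PSMG2 (68.2%) and PSMG3 (74.3%). The genes that rose were the activator subunit PSME1, the nuclear activator PSME4 and the alpha subunit PSMA1. The test was limma on log2(FPKM + 1) over 15869 genes, with calls at a Benjamini-Hochberg adjusted p under 0.05. Changes are given on that log2 scale as palbociclib minus DMSO. Of all genes tested, 22.9% were called lower and 20.9% higher, against 51.0% and 6.12% of the members. The median change was -0.12 over members and 0.0023 over all genes. Proteasome RNAs are abundant, and abundant genes are called more often: among the 46 members with a mean of at least 20 FPKM, 24 were lower and 3 higher, beside 29% and 29.6% of all 4792 genes at that level. The groups did not overlap in 35 of 49 members, against 54.7% of all genes tested. At a mean of at least 20 FPKM, they did not overlap in 34 of 46 members and in 3219 of 4792 genes. In bulk RNA, fewer cells that express a gene and less RNA per cell cannot be told apart.

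Most of these falls were small, and their calls depended on how the libraries were scaled. Centring each library on its median gene moved the median change of all genes by 0.096 and left 9 members lower and 6 higher. In that setting 15.5% of all genes were called lower and 34.5% higher. The median change was -0.023 over members and 0.098 over all genes, so the median over all genes did not lie at 0. The higher share of member calls moved from 10.7% to 40.0%, and that of all calls from 47.7% to 68.9%. Quantile normalization left 22 members lower and 4 higher, beside 18% and 28.9% of all genes, with 15.4% of member calls and 61.6% of all calls higher. With it, the median change was -0.066 over members and 0.057 over all genes. Across 14 alternatives of scaling, filtering, fitting and leaving out a library, 10 members kept their call and direction. They were PSMC3, PSMG1, PSMG2, PSMG3, ADRM1, PSMD12, PSMD14, PSMD8 and PSMA7, all lower, and PSME1, higher. In the authors' deposited table, 24 members were lower and 2 higher at an adjusted p under 0.05, beside 20.3% and 17.9% of its genes, and 26 of these calls were shared with limma in the same direction. Leaving out DMSO replicate 2 or palbociclib replicate 1 left 1 member higher, PSME1.

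**Figure D1:**
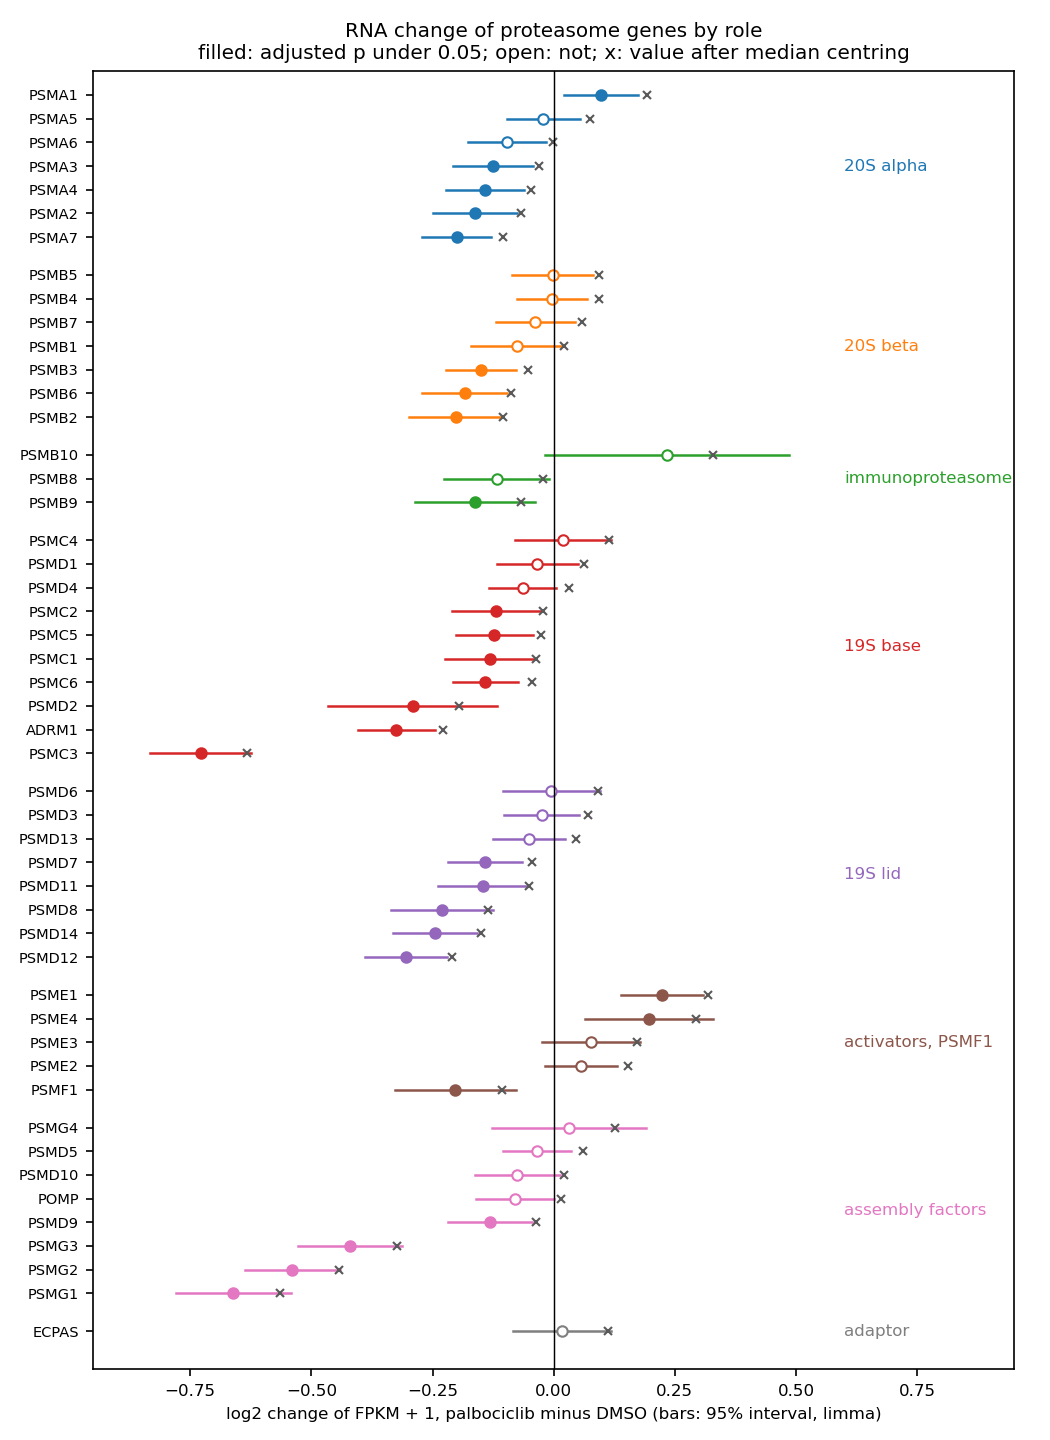
Log2 change of FPKM + 1 (palbociclib minus DMSO) for 49 proteasome genes ordered by role, with 95% intervals from limma. Filled circles passed an adjusted p of 0.05 and crosses give the value after median centring: PSMC3, PSMG1, PSMG2 and PSMG3 lie left of all others under both scalings, while many small falls move to 0 or above it.

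The alpha ring gates the core, and 4 of its 7 subunits fell, with a class median of -0.13. PSMA7 measured 236, 247 and 245 FPKM in DMSO replicates 1 to 3 and 211, 216 and 207 after palbociclib. All treated libraries lay below all control libraries, and the change was -0.20 (95% interval -0.27 to -0.13, limma adjusted p = 0.00106). PSMA2 measured 164, 162 and 174 FPKM in DMSO and 154, 146 and 147 after palbociclib, without overlap, a change of -0.16 (limma adjusted p = 0.00832). PSMA4 measured 248, 242 and 256 FPKM in DMSO and 231, 217 and 228 after palbociclib, also without overlap, a change of -0.14 (limma adjusted p = 0.0118). The fourth, PSMA3, went from 177, 172 and 187 to 165, 161 and 165 FPKM, again without overlap, a change of -0.13 (limma adjusted p = 0.0225). PSMA3 lost its call without DMSO replicate 1 (adjusted p = 0.0504), DMSO replicate 3 (0.0559) or palbociclib replicate 2 (0.0753). PSMA1 was the alpha subunit that moved the other way, from 106, 105 and 110.0 to 118, 113 and 112 FPKM, a rise of 0.097 (limma adjusted p = 0.0444). Its groups did not overlap, but the call was lost without DMSO replicate 1 (0.129), DMSO replicate 2 (0.130), palbociclib replicate 1 (0.143) or palbociclib replicate 2 (0.0817). PSMA6 and PSMA5 had changes of -0.097 and -0.021 and did not pass. With median centring, PSMA7 was the alpha subunit still called lower, at -0.10, and PSMA1 was called higher, at 0.19.

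The beta ring carries the proteolytic sites, and 3 of its 7 constitutive subunits were called lower. PSMB5, the chymotrypsin-like subunit and the target of bortezomib, measured 68.8, 66.1 and 70.9 FPKM in DMSO and 69.3, 69.5 and 66.6 FPKM after palbociclib. The groups lay over each other, and the change was -0.0020 (95% interval -0.086 to 0.082, limma adjusted p = 0.97). PSMB6, the caspase-like subunit, went from 79.8, 80.3 and 84.6 to 73.1, 73.2 and 68.8 FPKM. Every treated library was below every control, and the change was -0.18 (limma adjusted p = 0.00499). PSMB7, the trypsin-like subunit, measured 229, 229.6 and 241 FPKM in DMSO and 232, 231 and 219 after palbociclib, with overlap and a change of -0.038 (95% interval -0.12 to 0.044, limma adjusted p = 0.424). Among the 3 catalytic subunits, PSMB6 was thus the one called.

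Of the beta subunits without a proteolytic site, PSMB2 measured 42.0, 43.5 and 45.8 FPKM in DMSO and 36.9, 39.3 and 37.7 after palbociclib, and PSMB3 measured 235, 233 and 238 FPKM in DMSO and 211, 219 and 206. after palbociclib The groups did not overlap in either gene, and the changes were -0.20 (limma adjusted p = 0.00525) and -0.15 (limma adjusted p = 0.0052). PSMB1 and PSMB4 had changes of -0.075 and -0.0032 and did not pass. No constitutive beta subunit was called in either direction under median centring, where PSMB6 stood at -0.088, PSMB2 at -0.10 and PSMB5 at 0.094.

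The immunoproteasome subunits PSMB8, PSMB9 and PSMB10 replace PSMB5, PSMB6 and PSMB7 when interferon induces them, and change which peptides are made for presentation. PSMB8 measured 24.5, 25.5 and 27.0 FPKM in DMSO and 24.4, 23.3 and 22.9 after palbociclib. Its groups touched without overlapping, and the change of -0.12 did not pass (95% interval -0.23 to -0.0092, limma adjusted p = 0.0762). PSMB9 was low in all libraries, at 7.55, 7.51 and 7.01 FPKM in DMSO and 6.61, 6.50 and 6.28 after palbociclib, and was called lower at -0.16 (limma adjusted p = 0.0391). That call was lost without DMSO replicate 1 (0.111) or 2 (0.110), or palbociclib replicate 1 (0.0653), 2 (0.0851) or 3 (0.0978), and in the authors' deposited table its adjusted p was 0.207. PSMB10 measured 7.45, 5.42 and 6.21 FPKM in DMSO and 6.68, 8.13 and 8.08 after palbociclib, and the control library 1 lay within the treated range. Its change of 0.23 did not pass (95% interval -0.018 to 0.48, limma adjusted p = 0.119), while median centring called it higher at 0.33.

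Set against its constitutive counterpart, PSMB8 made up 27.2% ± 0.87 (SD, n = 3) of the summed FPKM of PSMB8 and PSMB5 in DMSO and 25.6% ± 0.47 after palbociclib. PSMB9 made up 8.28% ± 0.54 of PSMB9 and PSMB6 in DMSO and 8.27% ± 0.10 after palbociclib. PSMB10 made up 2.66% ± 0.44 of PSMB10 and PSMB7 in DMSO and 3.25% ± 0.41 after palbociclib. The constitutive transcripts were the larger part of all 3 pairs in all 6 libraries. Exact two-sided permutation tests gave p = 0.10 for the PSMB8 share, the smallest that 3 against 3 libraries can give, 1 for PSMB9 and 0.20 for PSMB10. A single scaling factor per library leaves these shares and ratios as they are. With Benjamini-Hochberg adjustment over the 14 shares and ratios computed, the smallest value was 0.127, so none passed and, at this size, none could.

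The base of the regulatory particle had 7 of 10 subunits called lower and none higher, with a median change of -0.13. PSMC3, the ATPase also called RPT5, measured 142, 142 and 155 FPKM in DMSO replicates 1 to 3 and 91.3, 84.7 and 87.1 FPKM in the treated replicates. The lowest control exceeded the highest treated library by a wide margin, and the change was -0.73 (95% interval -0.83 to -0.63, limma adjusted p = 4.61e-06). Under median centring it was -0.63 and under quantile normalization -0.70. ADRM1, the ubiquitin receptor also called RPN13, went from 67.1, 66.2 and 64.8 to 53.6, 53.3 and 50.6 FPKM. All 3 treated libraries were lower, and the change was -0.33 (95% interval -0.40 to -0.25, limma adjusted p = 0.000127).

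PSMD2, a scaffold subunit that binds ubiquitin-like domains, spread more than the others, at 242, 275 and 271 FPKM in DMSO and 240.2, 206 and 198 after palbociclib. DMSO replicate 1 and palbociclib replicate 1 nearly met, and the change was -0.29 (95% interval -0.46 to -0.12, limma adjusted p = 0.0143). The call was lost without DMSO replicate 2 (adjusted p = 0.0529), without palbociclib replicate 2 (0.0502) and with median centring (0.0646). PSMC6, another ATPase, measured 105, 105 and 108 FPKM in DMSO and 97.0, 94.5 and 96.0 after palbociclib, without overlap, a change of -0.14 (limma adjusted p = 0.00476). The ATPases PSMC1, PSMC5 and PSMC2 were called at -0.13, -0.12 and -0.12. These 3 calls were lost without DMSO replicate 3 (adjusted p of 0.0821, 0.0590 and 0.112) and without palbociclib replicate 3 (0.0757, 0.0536 and 0.105). PSMC1 and PSMC2 lost theirs also without DMSO replicate 2 (0.0531 and 0.102) or palbociclib replicate 2 (0.0923 and 0.0903), and PSMC5 without DMSO replicate 1 (0.0514). Reads of PSMC1 may be shared with its processed copy PSMC1P1, which measured 9.52 ± 0.77 FPKM in DMSO and 5.73 ± 0.55 after palbociclib (SD, n = 3), so the PSMC1 value is uncertain. PSMC4 (0.019, interval -0.081 to 0.12), the scaffold PSMD1 (-0.034, interval -0.12 to 0.050) and the ubiquitin receptor PSMD4 (-0.064, interval -0.13 to 0.0051) did not pass.

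The ATPase ring contains 1 copy of each of PSMC1 to PSMC6, so the transcripts were also compared as shares of their summed FPKM, a measure per transcript length. PSMC3 held 20.1%, 20.1% and 20.9% of the sum in DMSO and 14.4%, 13.9% and 14.5% after palbociclib. Its share fell in all 3 treated libraries and each of the other 5 shares lay above every control library, though shares of a sum are not independent. PSMC1 went from 26.9% ± 0.13 to 28.6% ± 0.64, and PSMC4 from 7.49% ± 0.088 to 8.85% ± 0.38 (SD, n = 3). The ratio of PSMC3 to PSMC4 FPKM was 2.72 ± 0.073 in DMSO and 1.61 ± 0.11 after palbociclib. For the PSMC3 share and for this ratio the exact two-sided permutation p was 0.10, the smallest possible.

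**Figure D2:**
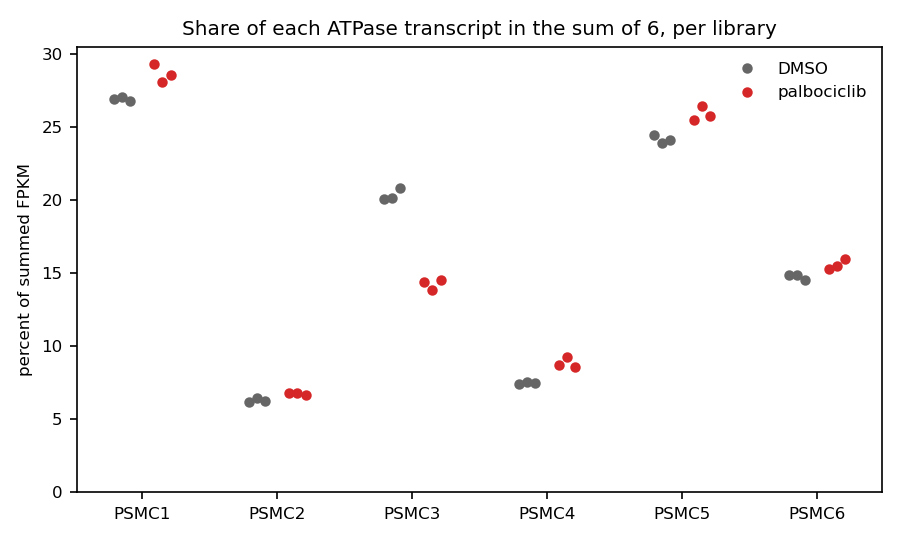
Percent of the summed FPKM of PSMC1 to PSMC6 held by each ATPase transcript, with 1 point per library (3 DMSO, 3 palbociclib). PSMC3 drops from 20.1% to 20.9% in DMSO to 13.9% to 14.5% after palbociclib. The shares of the other ATPases are higher because shares of a sum are not independent. Of these 5 transcripts, 4 were called lower in FPKM and 0 higher.

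In the lid, 5 of 8 subunits fell and none rose, with a class median of -0.14. PSMD12, a scaffold subunit, measured 84.3, 79.0 and 84.1 FPKM in DMSO and 67.3, 64.7 and 67.7 after palbociclib. The groups stood well apart, and the change was -0.30 (95% interval -0.39 to -0.22, limma adjusted p = 0.000275). PSMD14, the metalloprotease that cuts the ubiquitin chain from the substrate, went from 50.4, 47.8 and 50.8 to 42.5, 40.5 and 42.2 FPKM, a change of -0.25 (95% interval -0.33 to -0.16, limma adjusted p = 0.000983). PSMD8 went from 76.5, 79.7 and 73.4 to 65.3, 68.2 and 61.8 FPKM, a change of -0.23 (95% interval -0.34 to -0.13, limma adjusted p = 0.00387). None of these 3 overlapped between treatments, and all 3 kept their call under median centring, at -0.21, -0.15 and -0.14. PSMD11, whose level can limit the amount of assembled proteasome in stem cells, measured 94.2, 99.9 and 101 FPKM in DMSO and 87.3, 92.6 and 86.8 after palbociclib, a change of -0.15 (limma adjusted p = 0.018). Its call was lost without DMSO replicate 2 (0.0611) or 3 (0.0570) and without palbociclib replicate 1 (0.0616) or 3 (0.0516). PSMD7, the inactive partner of PSMD14, fell by 0.14, and PSMD13, PSMD3 and PSMD6 had changes of -0.051, -0.025 and -0.0055 that did not pass. SEM1, the small lid subunit outside the PSM naming, was called lower at -0.17 (limma adjusted p = 0.0245), a call lost without DMSO replicate 1 or 3 or palbociclib replicate 2 or 3 (highest adjusted p 0.0825) and with median centring (-0.072, 0.270).

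The alternative activators open the gate without the regulatory particle, and 2 of the 4 rose while none fell. PSME1, which with PSME2 forms the PA28αβ ring linked to the immunoproteasome, measured 96.6, 95.2 and 94.1 FPKM in DMSO and 113, 115 and 106 after palbociclib. All treated libraries were higher than all controls, and the rise was 0.22 (95% interval 0.14 to 0.31, limma adjusted p = 0.00146). PSME2 measured 103, 105 and 99.5 FPKM in DMSO and 106, 109 and 104 after palbociclib, with overlap, and its change of 0.057 did not pass (95% interval -0.017 to 0.13, limma adjusted p = 0.189). The ratio of PSME1 to PSME2 FPKM went from 0.93 ± 0.019 to 1.05 ± 0.025 (SD, n = 3), with no overlap and an exact two-sided permutation p of 0.10, the smallest possible.

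PSME3, the nuclear PA28γ, measured 86.3, 93.2 and 95.7 FPKM in DMSO and 95.8, 94.6 and 99.8 after palbociclib, with overlap and a change of 0.077 that did not pass (95% interval -0.024 to 0.18, limma adjusted p = 0.193). PSME4, the activator PA200, went from 27.3, 29.5 and 32.2 to 33.7, 33.5 and 35.0 FPKM. The treated libraries lay above the controls, and the rise was 0.20 (95% interval 0.065 to 0.33, limma adjusted p = 0.0233). It was lost without DMSO replicate 1 (0.0643) or 2 (0.0628) and without palbociclib replicate 1 (0.0528) or 3 (0.0666). PSMF1, the inhibitor PI31, went from 60.3, 63.3 and 68.5 to 55.2, 58.5 and 52.8 FPKM without overlap, a change of -0.20 (95% interval -0.33 to -0.077, limma adjusted p = 0.0167). Its call was lost without palbociclib replicate 3 (0.0518) and with median centring (0.154). Under median centring all 4 activators were called higher, PSME1 at 0.32, PSME4 at 0.29, PSME3 at 0.17 and PSME2 at 0.15. In that setting 34.5% of all genes were called higher, and the median change of all genes was 0.098.

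The assembly factors split into chaperones of the core, of which 3 fell by the largest amounts of the class, and others that changed little. PSMG1 and PSMG2 form the PAC1-PAC2 pair on which the alpha ring is built. PSMG1 measured 61.4, 58.4 and 62.8 FPKM in DMSO and 39.0, 35.4 and 40.1 after palbociclib, and PSMG2 measured 49.8, 48.2 and 51.4 FPKM in DMSO and 32.3, 34.9 and 34.7. after palbociclib No treated library came near a control in either gene. The changes were -0.66 (95% interval -0.78 to -0.54, limma adjusted p = 1.98e-05) and -0.54 (95% interval -0.64 to -0.44, limma adjusted p = 2e-05). The ratio of PSMG1 to PSMG2 FPKM was 1.22 ± 0.012 in DMSO and 1.13 ± 0.10 after palbociclib (SD, n = 3).

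PSMG3 and PSMG4 form the PAC3-PAC4 pair that acts on the same ring. PSMG3 went from 44.2, 44.1 and 45.4 FPKM in DMSO to 33.1, 35.1 and 31.1 after palbociclib. Its groups were far apart, and the change was -0.42 (95% interval -0.53 to -0.31, limma adjusted p = 0.000168). PSMG4, the least abundant assembly factor, measured 10.4, 10.3 and 8.76 FPKM in DMSO and 9.64, 10.2 and 10.2 after palbociclib, with overlap and a change of 0.032 (95% interval -0.13 to 0.19, limma adjusted p = 0.741). The ratio of PSMG3 to PSMG4 FPKM went from 4.57 ± 0.53 to 3.30 ± 0.23 (SD, n = 3; exact two-sided permutation p = 0.10, the smallest possible). An antisense gene, PSMG3-AS1, rose from 5.67 ± 0.51 to 7.64 ± 0.14 FPKM (SD, n = 3), a change of 0.38 (limma adjusted p = 0.00226). Whether the counting used strand is not given in the sources used here, so reads of PSMG3 and PSMG3-AS1 could not be told apart.

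POMP, the factor that matures the beta ring, measured 116 ± 4.16 (SD, n = 3) in DMSO and 109 ± 2.18 after palbociclib FPKM, and its change of -0.080 did not pass (95% interval -0.16 to 0.00046, limma adjusted p = 0.0986). Among the base chaperones, PSMD9 went from 37.2, 38.8 and 36.1 to 34.3, 33.4 and 34.3 FPKM without overlap, a change of -0.13 (limma adjusted p = 0.0223). The call was lost without DMSO replicate 1 (0.0565) or 2 (0.0797), without palbociclib replicate 2 (0.0770) and with median centring (0.456). PSMD10, known as gankyrin, and PSMD5 had changes of -0.075 (interval -0.16 to 0.012) and -0.035 (interval -0.11 to 0.037) and did not pass. ECPAS, an adaptor that binds 26S proteasomes, measured 31.9 ± 1.75 (SD, n = 3) in DMSO and 32.2 ± 0.333 after palbociclib FPKM, a change of 0.017 (95% interval -0.084 to 0.12, limma adjusted p = 0.781).

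**Figure D3:**
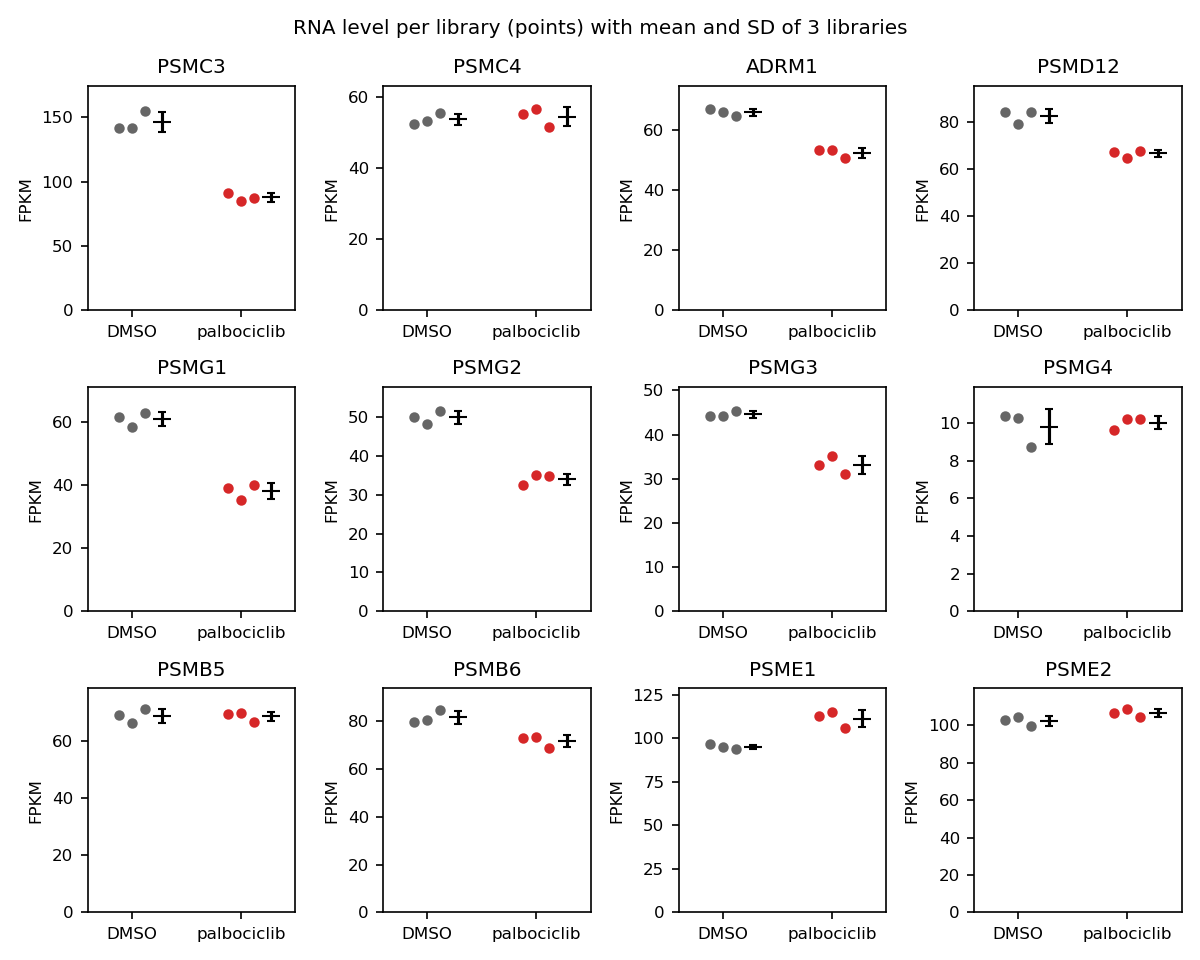
FPKM per library for 12 proteasome genes, with each point 1 library and the bar the mean ± SD of 3, on linear axes from 0. PSMC3, ADRM1, PSMD12, PSMG1, PSMG2, PSMG3 and PSMB6 are lower and PSME1 is higher in every palbociclib library than in any DMSO library, while PSMC4, PSMG4, PSMB5 and PSME2 overlap.

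Across roles, lower calls were made in 7 of 14 constitutive core subunits, 12 of 18 base and lid subunits and 4 of 8 assembly factors. Of all genes tested, 22.9% were called lower. Median centring left 1 of 14, 5 of 18 and 3 of 8, beside 15.5% of all genes in that setting. The difference between roles was not tested. Levels per length also differed within the complex: mean FPKM in DMSO ran from 6.36 for PSMB10 to 268 for PSMB4, and among base subunits from 45.1 for PSMC2 to 263 for PSMD2. Spearman's rho between mean FPKM and change across the 49 genes, which share libraries and are not independent, was -0.10. The authors' mean normalized counts of members ran from 280 to 42621.

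The wider ubiquitin and proteasome pathway held 41 genes in 6 lists, of which 10 were lower and 8 higher, beside the 22.9% and 20.9% of all genes. The median change was -0.0066. Median centring called 6 lower and 13 higher, beside 15.5% and 34.5% of all genes in that setting. Of 3 enzymes that bind the proteasome, both deubiquitinases fell. UCHL5, which is docked by ADRM1, went from 51.0, 52.8 and 51.6 FPKM in DMSO to 37.6, 36.2 and 39.8 after palbociclib, without overlap, a change of -0.44 (limma adjusted p = 5.65e-05). The ratio of UCHL5 to ADRM1 FPKM was 0.78 ± 0.022 in DMSO and 0.72 ± 0.056 after palbociclib (SD, n = 3), with an exact two-sided permutation p of 0.20. USP14 was called at -0.19 (limma adjusted p = 0.00991) and was not called with median centring (-0.096) or quantile normalization (-0.12). UBE3C did not pass.

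Among 12 shuttle factors and p97 partners, 4 were lower and 1 higher. RAD23B, a shuttle that carries ubiquitinated proteins to the proteasome, rose by 0.12 (limma adjusted p = 0.0121). UFD1, a cofactor of the p97 unfoldase, changed by -0.39 (limma adjusted p = 0.000259) and FAF1, another, by -0.42 (limma adjusted p = 3.84e-05), each without overlap. The falls of UFD1, FAF1 and UCHL5 kept their call with median centring, at -0.30 for UFD1, -0.33 for FAF1 and -0.35 for UCHL5. The lower call of UBQLN4, at -0.11, was lost with median centring (-0.011) and without any 1 of 5 libraries, all but DMSO replicate 3 (highest adjusted p 0.124). VCP, the p97 gene itself, did not pass at 0.071, but did with median centring (0.17, limma adjusted p = 0.00579) and with quantile normalization (0.092, 0.0258).

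Of 7 genes around NRF1, 1 was higher and 1 lower. NFE2L1 measured 80.6, 84.4 and 84.1 FPKM in DMSO and 88.4, 83.9 and 80.7 after palbociclib, with overlap and a change of 0.021 (95% interval -0.071 to 0.11, limma adjusted p = 0.703). With median centring NFE2L1 stood at 0.12 (limma adjusted p = 0.0485). Its small MAF partners moved in opposite directions. MAFK rose from 22.6, 22.5 and 22.8 FPKM to 35.5, 35.8 and 38.7, a change of 0.67 (limma adjusted p = 5.19e-06). MAFG fell from 7.15, 6.39 and 6.69 FPKM to 4.89, 4.72 and 4.93, a change of -0.40 (limma adjusted p = 0.000767). MAFF, near 1 FPKM, NFE2L2, NFE2L3 and NGLY1, the enzyme that processes NRF1, did not pass.

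Of 6 ubiquitin genes and activating enzymes, UBA1 rose by 0.29 (limma adjusted p = 6.88e-05) and the polyubiquitin gene UBB fell by 0.28 (0.00172). Of 6 other proteasome factors, MIDN, which delivers nuclear proteins to the proteasome, went from 22.7, 22.0 and 19.2 FPKM to 33.8, 34.8 and 28.8, without overlap, a change of 0.59 (limma adjusted p = 0.000623). ZFAND5, a proteasome-binding factor, rose by 0.24, AKIRIN2, which helps import proteasomes into the nucleus, was called at -0.18 and not with median centring (-0.086), and SEM1 is given above. Of 7 genes that work with the immunoproteasome in antigen processing, TAPBP rose by 0.23 and TAP1 by 0.14, and TAP2, B2M, IRF1 and NLRC5 did not pass. The TAP1 call was lost without DMSO replicate 1 or 2 or palbociclib replicate 1 (highest adjusted p 0.106).

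Chromatin at the starts of proteasome genes changed little where a peak was listed. Of the 49 members, 43 had a start in the RefSeq table. Of these, 20 had an ATAC peak within 1 kb, all with the peak over the start, and 23 had no listed peak there. The genes without a listed peak included PSMC3, PSMG1, PSMG2 and ADRM1, so accessibility at the starts of the genes that fell most was not measured by these peaks. By the edgeR quasi-likelihood test over all 38121 peaks, 1 of the 20 was higher and 0 were lower. Among 6411 peaks within 1 kb of any start, 1.86% were called higher and 11.1% lower. At an unadjusted p under 0.05 edgeR gave 3 of the 20 peaks, 2 of them lower, beside 25.7% of all peaks near starts. DESeq2 gave 2, 1 of them lower, beside 21.1%, with 0 lower after adjustment.

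The peak that passed lay over the start of ECPAS, at chr9:111483811-111484663. It measured 68.2, 74.5 and 70.2 CPM in DMSO and 81.6, 80.4 and 80.1 CPM after palbociclib, from at least 867 counts per library. All treated libraries were higher, and the log2 change was 0.18 (edgeR adjusted p = 0.0246), while ECPAS RNA changed by 0.017. The call was lost with DESeq2 (adjusted p = 0.0607) and without DMSO replicate 1 (0.116), DMSO replicate 3 (0.0993), palbociclib replicate 1 (0.101) or palbociclib replicate 2 (0.0510). The largest change in the other direction was at PSMB8, chr6:32844014-32844969, with 110, 109 and 116 CPM in DMSO and 100, 107 and 97.7 CPM after palbociclib. These groups did not overlap, and the change of -0.14 did not pass (edgeR adjusted p = 0.0656), although it did without palbociclib replicate 2 (-0.18, 0.0340). At PSMA1, chr11:14519909-14520805, the change was -0.14 (edgeR adjusted p = 0.189) and the RNA rose, and at PSME1, chr14:24135594-24136578, it was -0.080 (0.357) with an RNA rise.

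The median change of the 20 peaks was -0.025 and that of all peaks near starts -0.044, and 14 of the 20 were below 0. At 6 of the 20 the treatments were separated without overlap, against 29.6% of all peaks near starts. Of the 10 members with lower RNA and a peak at the start, 0 had a peak that passed. At PSMD12, with the largest RNA fall of these 10, the peak measured 49.6, 51.0 and 52.6 CPM in DMSO and 50.6, 51.9 and 52.6 CPM after palbociclib, a change of 0.016 (edgeR adjusted p = 0.907). At PSMD8 the change was -0.012 and at PSMD14 -0.076. Within 5 kb of a start members had 25 peaks, of which 3 were called lower, beside 10.8% of the 9555 peaks within 5 kb of any start. They lay at 4853 bases from PSME1 and 4608 from PSME2 (1 peak, -0.16), 2625 bases from PSMB3 (-0.20) and 3687 bases from PSMD1 (-0.25).

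**Figure D4:**
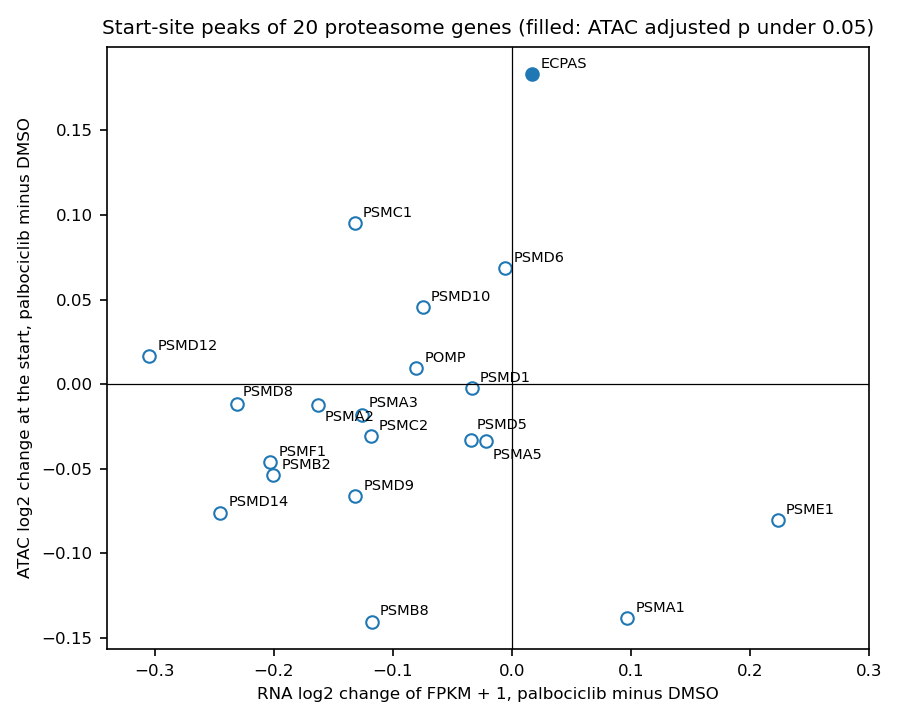
ATAC log2 change of the peak over the start against RNA log2 change, for the 20 proteasome genes with a listed peak. ECPAS, the filled point, is the peak that passed and its RNA lies near 0, while PSMD12, PSMD8 and PSMD14 have lower RNA with peak changes between -0.076 and 0.016.

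Splicing of proteasome transcripts changed little by the deposited event counts. The tables held 557 events in 48 members, and 123 events in 37 members passed the filters, which asked for 20 or more reads on average over the libraries and for the rarer form to hold 5% or more of the summed raw inclusion and skipping reads. Raw reads are not corrected for length, so an inclusion level can lie under 5%. By the edgeR test on inclusion and skipping counts, 1 of the 123 passed, beside 0.35% of 37445 events tested. It was a retained intron of PSMA1, chr11:14513888-14514402 on the minus strand, 515 bases long. Its inclusion level, the estimated fraction of transcripts that keep the intron, was 0.101, 0.089 and 0.096 in DMSO and 0.126, 0.111 and 0.127 after palbociclib. The treated libraries were all higher, by 0.026 in the mean and 0.40 in log2 odds (edgeR adjusted p = 0.0491), beside 1.1% of retained introns called higher overall.

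The adjusted p of the PSMA1 intron rose to 0.0696, 0.239 and 0.118 without DMSO replicates 1 to 3 and to 0.184, 0.0540 and 0.172 without palbociclib replicates 1 to 3. Without palbociclib replicate 1, 2 other events passed, an alternative 5′ splice site of PSMA7 (0.0215) and a retained intron of PSMC5 (0.0417). In the full data these had adjusted p of 0.0938 and 0.0588 and inclusion differences of 0.009 and 0.0043. At an unadjusted p under 0.05, 8.94% of member events and 8.53% of all events were found. No member event changed by 0.1 or more, and the largest change was 0.083, in PSMB7, an event with few reads. The authors' deposited rMATS table gave 1 member event with an FDR under 0.05, the same PSMA1 intron (0.0478).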

How the data were processed

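RNA-seq and ATAC-seq were measured in T-47D cells, with 3 biological replicates per treatment and assay, grouped by the labels. The members, gene lists, tests and alternatives were chosen with earlier results of these data known.

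Gene levels were FPKM deposited by the authors. The submitters' processing notes name fastp 0.23.2, Salmon 1.10.2, STAR 2.7.10b and DESeq2 1.44.0 for RNA, and Bowtie2 2.5.4-6, Picard 3.4.0-0 and MACS3 3.0.3-0 for ATAC, on GRCh38, without their roles. Per the file headers, the authors' DESeq2 table gives p-values, log2 fold changes with their errors, the Wald score and a mean normalized count (a signal value). ATAC values were counts per peak over 1 peak set, per the file headers from featureCounts. Splicing tables came from the authors' rMATS runs, per the file headers, with inclusion and skipping counts, inclusion levels as a fraction and their difference as a score.

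Here, limma 3.58.1 in R 4.3.3 was fitted to log2(FPKM + 1) with an intensity trend, edgeR 4.0.16 (quasi-likelihood, TMM) to peak counts, and edgeR to event counts averaging 20 or more reads over the libraries, with the rarer form at 5% or more of raw reads, all two-sided with Benjamini-Hochberg adjustment (splicing within event type). Scripts were tested on simulated data. PSMA8 and PSMB11 were not in the table analysed. Named members were all catalytic, immunoproteasome and activator genes, and per other role up to 4 called members with the largest change and no overlap. Pathway genes were named with per-library values from a log2 change of 0.3. Other pathway genes, the peaks of PSMB8, PSMA1, PSME1, PSMD12, PSMD8 and PSMD14 and the shares and ratios were singled out after their values were seen. Some genes of the pathway lists enter the counts and are not reported here by name. Alternatives covered scaling, pseudocount, filters, tool, pairing and leaving out each library. p-values measure the spread between these replicates of 1 cell line.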

Additional observations from a re-analysis of the deposited data

How the results depend on the processing

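Counts of lower members were 19 to 26 in the alternatives other than median centring, which gave 9 lower and 6 higher against 25 and 3. Leaving out 1 library gave 19 to 23 lower and 1 to 3 higher. Without an intensity trend, 19 were lower and 2 higher. ATAC peaks higher went from 1 to 0 with DESeq2 and numbered 0 to 1 without 1 library. Peaks lower went from 0 to 3 within 5 kb and numbered 0 to 1 without 1 library. Splicing events passing went from 1 to 0 with no minor-form filter or with adjustment over all event types, and numbered 0 to 2 without 1 library. With the replicate number as a block, 2 members were higher and 24 lower, 1 peak was higher and 0 lower, and 3 splicing events passed, those of PSMA1, PSMA7 and PSMC5. The labels do not state that the numbers pair the libraries. Same-numbered RNA libraries had deviations from the group means correlated at 0.11, -0.0051 and 0.088, and ATAC libraries at 0.0056, 0.042 and -0.028. Between libraries of different numbers the correlations ran from -0.14 to 0.051 in RNA and from -0.070 to 0.061 in ATAC. With 3 libraries per group, these values cannot decide whether the numbers pair the libraries. Of 28 called members, 0 changed direction in any of 14 alternatives, and 16 of the others did. Median centring added the same 0.096 to every change. The smallest called fall was PSMC2 at -0.12, so that setting could not turn a called member. The members that turned from below 0 to above 0 with median centring were PSMA5 0.075, POMP 0.016, PSMB1 0.021, PSMB4 0.093, PSMB5 0.094, PSMB7 0.058, PSMD1 0.062, PSMD10 0.021, PSMD13 0.045, PSMD3 0.071, PSMD4 0.032, PSMD5 0.061 and PSMD6 0.090. Those that turned in this way with quantile normalization were PSMA5 0.031, PSMB4 0.026, PSMB5 0.046, PSMB7 0.0025, PSMD1 0.016, PSMD13 0.0099, PSMD3 0.0083, PSMD5 0.021 and PSMD6 0.043. Leaving out 1 library gave ranges of ECPAS -0.0061 to 0.061, PSMB4 -0.020 to 0.020, PSMB5 -0.028 to 0.022, PSMC4 -0.011 to 0.057, PSMD3 -0.044 to 0.0038, PSMD6 -0.041 to 0.022 and PSMG4 -0.041 to 0.071. The cause of these shifts was not tested. RNA depth per library is not known from FPKM values, and members with no listed peak have no accessibility value.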
